A study of Mus musculus with 6 samples.

Results

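The Obox genes encode homeodomain proteins of the paired-like class, which bind DNA through a homeodomain and are named for their expression in the mouse oocyte. They lie in a cluster of close copies. In the maternal-to-zygotic transition (MZT), mRNAs stored in the oocyte are cleared while transcription starts from the genome of the embryo. In the mouse this begins before and during the 2-cell (2C) stage, and OBOX proteins supplied by the oocyte and made by the embryo are known to act redundantly in genome activation by guiding RNA polymerase II to gene promoters. KDM1A (LSD1) is a demethylase that removes methyl groups from lysine 4 of histone H3, and it reaches the embryo as a maternal protein.

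The genes described here are Obox1, Obox2, Obox3, Obox5 and Obox6, which are 5 of the 47728 gene rows in the expression tables. They were taken by symbol, and the symbols had been chosen by their group means in these same tables. Their levels in the 4 groups are therefore a description, and no test is attached to them. By these levels they fall into a maternal group (Obox1, Obox2 and Obox5, high in control oocytes) and a zygotic group (Obox3 and Obox6, high in control 2C embryos).

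RNA-seq had been performed on Kdm1a mutant ovulated eggs (3 libraries) and on maternal Kdm1a mutant 2C embryos of embryonic day 1.5 (3 libraries), each made from litters lysed together. The mothers of both groups carried LSD1 fl/fl alleles and Zp3-Cre, a transgene whose promoter is active in growing oocytes, so deletion was directed to the oocyte and not to the surrounding follicle cells. The study's text differs here and writes the genotype of the mutant mothers as Kdm1a fl/Δ with Zp3-Cre, where Δ is a deleted allele. The mutant 2C embryos (M-Z+) had wild-type CB6 fathers and therefore an intact paternal allele of Kdm1a. Control Kdm1a fl/fl oocytes and control M+Z+ 2C embryos had been sequenced for an earlier study. Wherever mutants are set against controls, the effect of the genotype and that of the study cannot be told apart. The study's methods state that females were superovulated to obtain embryos for RNA-seq. Neither labels nor methods give the ages of the females.

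Every value below is the authors' mean of a group. It is a median-normalized count of reads with no unit of its own, called a score here. Per-library values were not analysed here, so no value has an SD or an n, the depth is unknown, and whether a difference exceeds the spread between replicates could not be tested. In the tables with 2C embryos the columns carry no group names. Which column is which group was settled by rank correlation, against the order in the study's own legends. Where control oocytes were 1 of the groups, this was correlation with the named oocyte column. For mutant against control 2C embryos, the columns were matched to the 2C columns of the other tables. The direction of every ratio with 2C embryos rests on these correlations. Scores were scaled within each of the 4 tables and are compared only within a table. The log2 ratio of 2 groups is that of the scores after 1 was added to each, which understates ratios of low genes. A gene counted as measured with a score of at least 10 in either group, and as past the bound when the groups differed 4-fold or more, which is 2 on the log2 scale. In bulk samples of this kind, fewer cells of a type and less RNA per cell cannot be told apart.

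The deleted gene itself was looked at first. The score of Kdm1a was 921 in control oocytes and 6.37 in mutant eggs, and 1254 in control and 14.5 in mutant 2C embryos. All 8 oocyte markers examined, among them the zona pellucida genes and Bmp15, were measured in every comparison. The 8 together summed to 42938 in control oocytes and 61156 in mutant eggs, and to 7749 in control and 64913 in mutant 2C embryos. Of 11 measured rows for markers of the 2C stage, 10 were past the bound toward higher levels in control 2C embryos relative to control oocytes. All 12 rows of that list summed to 4165 in control and 1931 in mutant 2C embryos, of which Zfp352 made up 2237 and 1064. Between these groups, 6 of 11 measured rows were past the bound toward lower levels in the mutant and 1 toward higher. Among all measured genes 32.7% were past it downward and 21.2% upward. Of 9 markers of cumulus and granulosa cells, Fshr, Foxl2 and Amh were listed at 0 in both mutant groups, and the list summed to 977 in control oocytes and 4247 in mutant eggs, and to 12.4 in control and 1489.9 in mutant 2C embryos. Of these sums Cyp19a1 (aromatase) made up 957 and 4237, and 5.55 and 1488. The summed levels of 6 rows for blood markers were at most 42.4. Of the sperm markers, 7 of 7 rows were at 0 in mutant eggs and 6 of 7 in mutant 2C embryos, where Acrv1 was at 88.3 and control 2C embryos had 1.84. Of the oviduct markers, Epcam, which early embryos also express, was at 2276 in control and 740.4 in mutant 2C embryos. Cyp19a1, the oocyte list and Epcam thus differed between the genotypes of the 2C embryos alongside the Obox genes, and their part in the Obox values was not tested.

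The family members are close copies, and the stretch of the homeobox that encodes the end of the DNA-recognition helix shows how close. The following 51-base coding stretches are from GENCODE transcripts of GRCm38, 5′ to 3′, and capitals mark bases that differ from Obox1. They are shown because a read of 50 bases is about as long as each of them.
Obox1: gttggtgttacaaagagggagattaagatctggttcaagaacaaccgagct
Obox2: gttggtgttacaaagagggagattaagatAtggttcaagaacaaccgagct
Obox5: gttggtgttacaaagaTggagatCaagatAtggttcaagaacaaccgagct
Obox3: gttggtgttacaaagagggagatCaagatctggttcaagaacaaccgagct
Obox6: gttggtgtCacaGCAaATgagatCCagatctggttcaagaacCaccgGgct
Obox2 and Obox3 each differed from Obox1 by 1 base here, Obox5 by 3 and Obox6 by 10. Obox3, a zygotic member, is therefore as close to Obox1 in this stretch as the maternal Obox2 is. Over the aligned coding sequence Obox1 was 98.5% identical to Obox2, 95.6% to Obox5, 94.0% to Obox3 and 77.9% to Obox6. In the 51-base stretch similarity thus did not follow the division into maternal and zygotic members, since Obox3 was nearer to Obox1 than Obox5 was. Over the coding sequence the maternal genes were closest to each other (95.1% to 98.5%). Obox3 stood little farther from them (93.2% to 94.0%) and Obox6 apart (75.1% to 80.1%).

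The promoters were compared next. RefSeq promoter windows of GRCm38.p6 (250 bases before to 50 after the annotated start site) were found for Obox1, Obox2, Obox5 and Obox3. None was found for Obox6, so the zygotic side of this comparison is Obox3 alone. The 250 bases before the start site are printed for a maternal gene, Obox5 (chr7:15750120-15750369, + strand), and for the zygotic gene Obox3 (chr7:15639778-15640027, − strand), 5′ to 3′, because these are the places where the sequences part. Capitals mark matches on either strand to CANNTG (the E-box, bound by the oocyte factor FIGLA with its partner), to GGATTA (the core bound by OTX-type and OBOX homeodomains) and to TATAAA (the box bound by TBP).
Obox5: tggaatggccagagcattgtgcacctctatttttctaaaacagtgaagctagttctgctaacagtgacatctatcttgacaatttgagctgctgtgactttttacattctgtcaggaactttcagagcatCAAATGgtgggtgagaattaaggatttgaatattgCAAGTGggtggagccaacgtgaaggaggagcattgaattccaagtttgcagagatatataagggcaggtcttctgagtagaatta
Obox3: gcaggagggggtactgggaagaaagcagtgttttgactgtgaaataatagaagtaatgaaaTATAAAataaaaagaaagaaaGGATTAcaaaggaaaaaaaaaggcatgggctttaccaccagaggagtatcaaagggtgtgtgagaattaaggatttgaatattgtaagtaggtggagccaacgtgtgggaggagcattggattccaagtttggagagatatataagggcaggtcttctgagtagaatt
From 125 bases before the Obox3 start site onward, 162 of 175 aligned bases (92.6%) were the same in Obox3 and Obox5. The first 125 bases of the Obox3 window fell outside the aligned block, and in bins of 25 bases laid over them without gaps the identity with Obox5 was 24.0% to 36.0%. Among the maternal promoters the aligned blocks reached farther upstream: Obox1 was identical to Obox2 at 203 of 203 aligned bases and to Obox5 at 273 of 283 (96.5%). The RefSeq window of Obox2 begins farther upstream than that of Obox1, so its first bases, which hold a further pair of matches to CANNTG, fell outside the block.

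**Figure D1:**
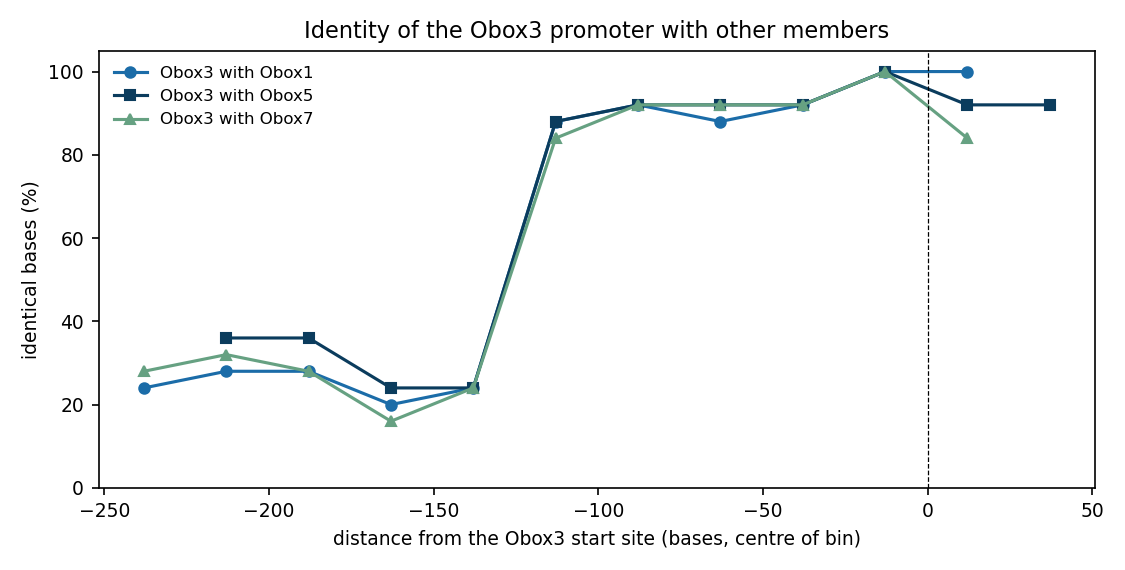
Identity of the Obox3 promoter window with the windows of Obox1, Obox5 and Obox7, laid over it without gaps at the offset of their best alignment, as the percent of identical bases in bins of 25 bases (y axis) against distance from the Obox3 start site (x axis). Identity was 16.0% to 36.0% in bins farther than 125 bases upstream and at least 84.0% in the bins nearer the start site.

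Within the shared block, Obox5 held the letters CAAATG at base 131 and the letters CAAGTG at base 166 of its window, both matches to the E-box, and Obox1 and Obox7 held the same pair of matches. Obox3 had none. Of the 13 substitutions between Obox5 and Obox3 in the block, 3 fell on fixed bases of these matches (T135G, C166T and G171A, with the Obox5 base first and positions counted from 1 at the 5′ end of the Obox5 window). The Obox3 window held GGATTA at base -168 and TATAAA at base -189 relative to its start site, in the stretch not shared with the other genes. No window of the maternal members held either exact match. Nearer the start site, the Obox5, Obox3 and Obox1 windows all held the letters gatatataag. These resemble TATAAA but are no exact match and were not counted, so the search does not show that only Obox3 has such a box. TAATTG, a core of the element bound by NOBOX, occurred in none of these windows. Of 32851 RefSeq promoter windows of this length, 72.3% held CANNTG, 7.06% GGATTA, 13.6% TATAAA and 8.0% TAATTG on either strand. These are matches of letters, and absence from the window says nothing about the factors. The start sites are those of RefSeq, and the GENCODE transcript of Obox1 used below begins upstream of the Obox1 window.

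All 5 genes lie on chromosome 7 of GRCm38. Obox2 (positions 15388721 to 15398545), Obox1 (15546982 to 15556866) and Obox5 (15750377 to 15759800) are transcribed from the + strand in 4 exons each. Obox3 (15625306 to 15639777, 5 exons) lies between Obox1 and Obox5, and Obox6 (15833241 to 15839678, 3 exons) lies beyond Obox5, both on the − strand. The annotation counts 53 Obox genes and pseudogenes on this chromosome within 1508 kb. Maternal and zygotic members are therefore interleaved rather than in separate blocks.

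**Figure D2:**
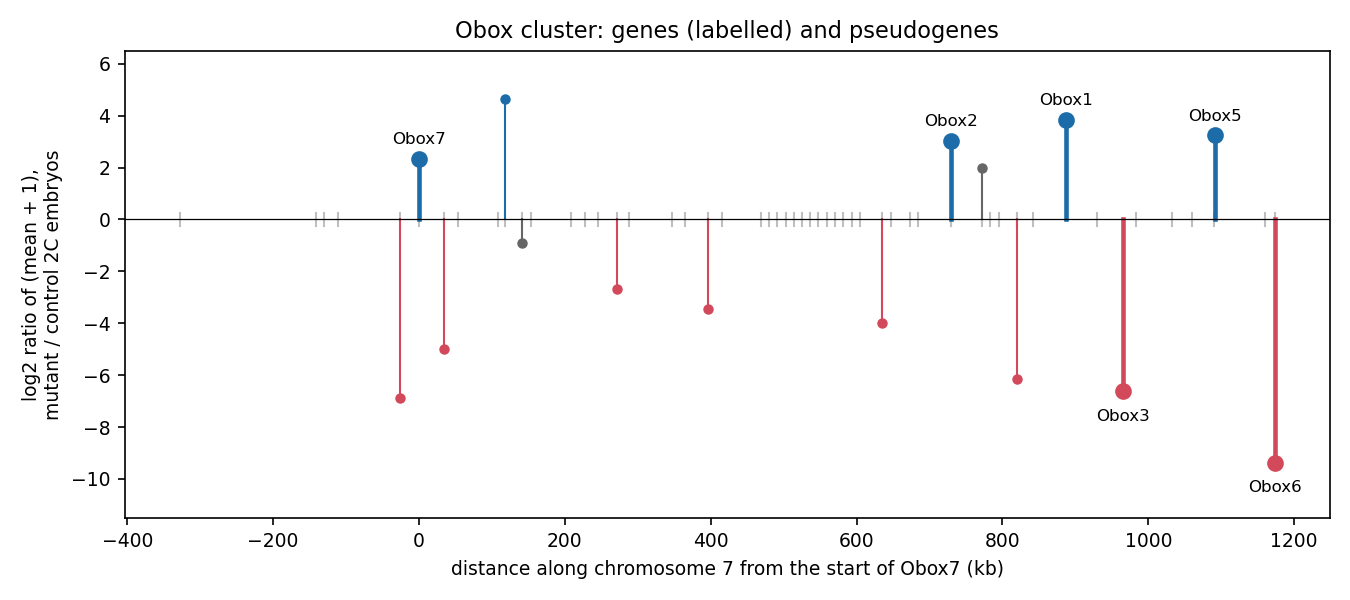
The Obox cluster on chromosome 7, with distance from the start of Obox7 in kb (x axis) and the log2 ratio of mutant to control 2C embryos (y axis) for each measured gene (large labelled points) and pseudogene (small points), coloured blue or red where past the 4-fold bound and grey where within it. Grey ticks mark every annotated Obox gene or pseudogene, and Obox3 at -6.63 stands between Obox1 at 3.85 and Obox5 at 3.24.

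The first comparison set control 2C embryos against control oocytes and shows the normal course of the family across fertilization. The members crossed over: all 3 maternal genes were lower in the 2C embryo and both zygotic genes were higher. Obox5 had a score of 21635 in control oocytes and 1021 in control 2C embryos, a 21.2-fold difference (log2 ratio -4.40). Obox2 had 11430.1 and 582, which is 19.7-fold lower in the embryo (log2 ratio -4.29). Obox1 had 8046 and 524, which is 15.3-fold lower (log2 ratio -3.94). The 3 genes thus differed by similar factors from unequal starting levels.

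The zygotic genes ran the other way. Obox3, the zygotic member whose product is known as an activator of genes at genome activation, had a score of 78.8 in control oocytes and 1994 in control 2C embryos, 25.3-fold higher in the embryo (log2 ratio 4.64). Obox6, known for promoting reprogramming of somatic cells to pluripotency when expressed from a transgene, was at 0.0167 in control oocytes and 3166 in control 2C embryos. Its log2 ratio of 11.61 ranked 17 from the top of 16674 measured genes but depends on the 1 added to a score near 0. Of the 5 members measured, 2 were past the bound upward and 3 downward. Among all measured genes in this comparison 31.0% were past it upward and 23.9% downward, and nothing is read from the count of members, whose choice used this contrast.

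Levels of different genes can be set beside each other only per length. In control oocytes of the same table, the score per kb of transcript was 11816 for Obox5, 7834 for Obox2, 5322 for Obox1, 49.2 for Obox3 and 0.0124 for Obox6. In control 2C embryos the zygotic genes stood above the maternal genes, with 2356 for Obox6 and 1244 for Obox3, and the maternal genes followed in the same order among themselves, with 558 for Obox5, 399 for Obox2 and 347 for Obox1. Since no spread is known, whether neighbours in these orders differ beyond their error cannot be said, and the down-weighting of shared reads described below lowers Obox1 and Obox2 most.

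**Figure D3:**
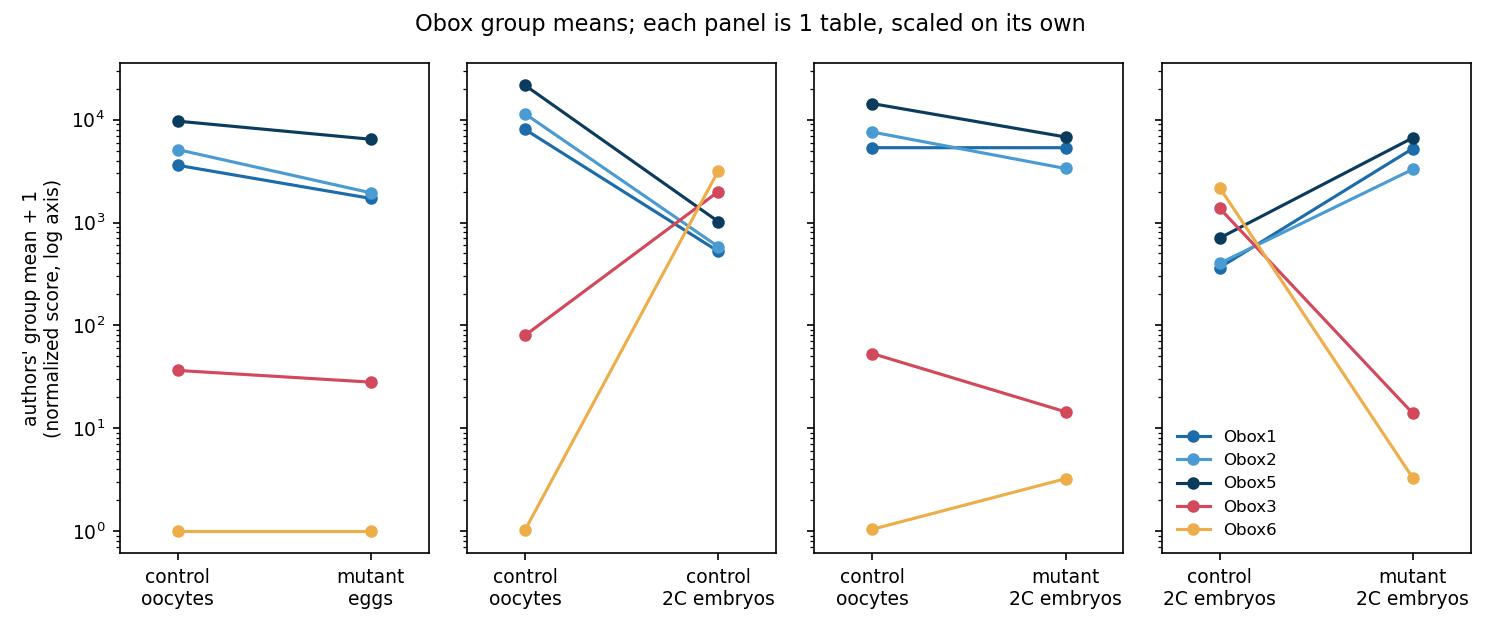
Group means of the 5 Obox genes plus 1 (y axis, log axis) in the 2 groups of each of the 4 tables (x axis), with a line joining the means of each gene within a table. The lines of the maternal genes (blue) and the zygotic genes (red and yellow) cross between control oocytes and control 2C embryos, and cross back between control and mutant 2C embryos.

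The comparison of mutant with control 2C embryos asks whether that course was followed in embryos without maternal KDM1A. In mutant 2C embryos the maternal genes had higher scores than in control 2C embryos and the zygotic genes had scores of at most 12.9. Obox1 had a score of 363 in control and 5247 in mutant 2C embryos, 14.5-fold higher in the mutant (log2 ratio 3.85). Obox2 had 399.9 and 3295, which is 8.24-fold higher (log2 ratio 3.04). Obox5 had 705 and 6668, which is 9.46-fold higher (log2 ratio 3.24). Each maternal gene was past the bound in this comparison, and so was each zygotic gene in the other direction.

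Obox3 had a score of 1376 in control and 12.9 in mutant 2C embryos, 107-fold lower in the mutant (log2 ratio -6.63). Obox6 had 2185 and 2.27, which is 961-fold lower (log2 ratio -9.38) and ranked 30 from the bottom of 15798 measured genes. Of the 5 members measured, 3 were past the bound upward and 2 downward, beside 21.2% of all measured genes upward and 32.7% downward. This contrast was also in view when the members were chosen, and nothing is read from their count. The median log2 ratio of all measured genes was -0.37 in this comparison, so relative to that median the maternal genes stood slightly higher (3.41 to 4.22) and the zygotic genes slightly less low (-6.27 and -9.01). The scores per kb followed Obox5, Obox1, Obox2, Obox3 and Obox6 in mutant 2C embryos (3642, 3470.3, 2258, 8.03 and 1.69), with the maternal genes above the zygotic genes as in control oocytes. The down-weighting of shared reads lowers Obox1 and Obox2 most, so nothing is read from the order among the maternal genes.

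The mutant 2C embryos were also set against control oocytes directly, which is a comparison that shares its controls with that of control 2C embryos. Here the maternal genes parted from each other. Obox1 had a score of 5343 in control oocytes and 5344 in mutant 2C embryos (log2 ratio 0.00). Obox2 had 7586 and 3353 (log2 ratio -1.18), and Obox5 had 14353 and 6795 (log2 ratio -1.08). Obox1 thus had the same score in mutant 2C embryos as in control oocytes. The other maternal genes had about 2.26-fold and 2.11-fold lower scores in the mutant embryo, all within the 4-fold bound. In this comparison the stage cannot be told apart from the genotype and the study. Mutant eggs already differed from control oocytes, with log2 ratios of -1.07 for Obox1, -1.40 for Obox2 and -0.59 for Obox5.

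Neither zygotic gene was higher than the bound in mutant 2C embryos relative to control oocytes. Obox3 was at 52.1 in control oocytes and 13.4 in mutant 2C embryos (log2 ratio -1.89), so its score in the mutant embryo was below that of the oocyte. Obox6 was at 0.0367 and 2.22, under the minimum of 10, and did not count as measured. Of the 4 members measured, 0 were past the bound in either direction, beside 16.0% of all measured genes upward and 18.9% downward. In a comparison with a ratio this close to the bound for Obox3, the count rests on the bound chosen: at a bound of 1 on the log2 scale, Obox2, Obox5 and Obox3 would count as lower. The median of all measured genes was -0.14 here and 0.21 in the comparison of control 2C embryos with control oocytes.

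**Figure D4:**
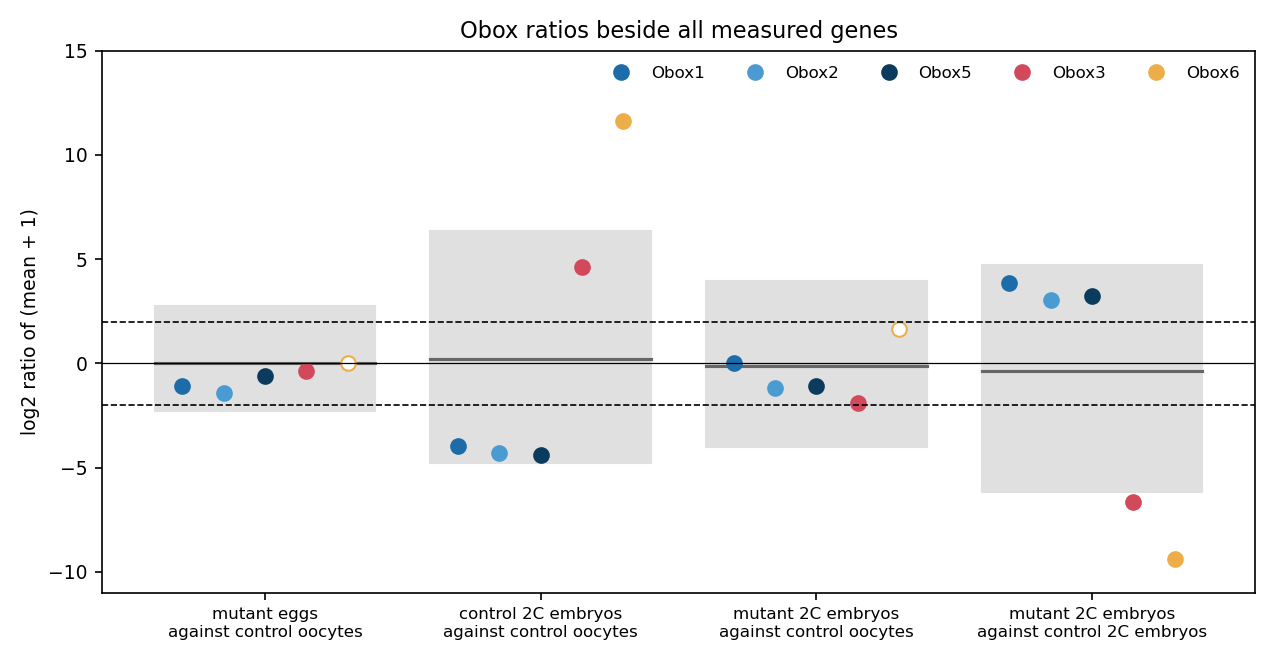
Log2 ratios of (mean + 1) for the 5 Obox genes (points, y axis) in the 4 comparisons (x axis), where open points are genes under the minimum score of 10 in both groups, grey boxes span the 5th to 95th percentile of all measured genes, grey lines are their medians and dashed lines are the 4-fold bound. Obox3 at -6.63 and Obox6 at -9.38 lie below the box in mutant against control 2C embryos, and all filled points lie within the bound in both comparisons of mutants with control oocytes.

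In eggs, before fertilization, the members differed less between genotypes. Obox1 had a score of 3604 in control oocytes and 1714 in mutant eggs (log2 ratio -1.07). Obox2 had 5124 and 1943 (log2 ratio -1.40), and Obox5 had 9688 and 6454 (log2 ratio -0.59). Obox3 was at 35.4 and 27.0 (log2 ratio -0.38), and Obox6 was listed at 0 in both groups. The 4 measured members all had lower scores in the mutant eggs, by 1.31-fold to 2.64-fold, and 0 were past the bound, beside 8.79% of all measured genes upward and 6.26% downward. The median log2 ratio of all measured genes in this comparison was 0.02. The authors' means give no error for these differences, and at a bound of 1 on the log2 scale Obox1 and Obox2 would count as lower.

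The tables can be checked against each other, since the ratio of mutant to control 2C embryos can also be had through control oocytes. By that route the log2 ratios were 3.94 for Obox1, 3.12 for Obox2, 3.33 for Obox5, -6.53 for Obox3 and -9.97 for Obox6, beside 3.85, 3.04, 3.24, -6.63 and -9.38 from the direct table. These values rest on the same libraries and say only that the scaling of each table moved them little.

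How reads were divided between copies bears on every one of these scores. A read that aligned equally well to N gene loci had been counted with the weight 1/N² at each, so a stretch shared by a pair of genes counts less than once over both together. Transcripts were therefore cut into all windows of 50 bases, the read length, and each window was looked up in all other GENCODE genes on either strand. In Obox1, 59.3% of windows were found unaltered in another gene, and 58.0% in Obox2. In Obox2, 63.0% of windows were found in another gene and 60.1% in Obox1. In Obox5, 13.0% of windows were shared. If reads fell evenly along each transcript, the weights would leave 54.3% of the reads of Obox1, 51.5% of those of Obox2 and 89.1% of those of Obox5. The scores of Obox1 and Obox2 are therefore partly the same reads and are not independent of each other, although their log2 ratios in mutant 2C embryos against control oocytes differed (0.00 and -1.18).

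The zygotic genes shared windows mainly with pseudogenes and little with the maternal genes. In Obox3, 40.6% of windows were found in another gene and 39.4% in Obox pseudogenes, while at most 0.579% were found in any of Obox1, Obox2 and Obox5. In the other direction, 1.98% of the windows of Obox1, 2.06% of Obox2 and 0.505% of Obox5 were found in Obox3. In Obox6, 5.02% of windows were shared, with 1 pseudogene, Obox6-ps1, and 0 with any other member. The even-coverage estimate left 64.1% of the reads of Obox3 and 96.2% of those of Obox6. Where scores are high, the opposite values of maternal and zygotic genes are therefore measured on reads that are almost wholly separate at exact identity. Where Obox3 is low, as in oocytes and mutant 2C embryos, the share of its score that comes from maternal genes was not tested. The authors' alignment accepted 95% identity, so a read with sequencing errors could still be placed on a near copy, and this was not tested.

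**Figure D5:**
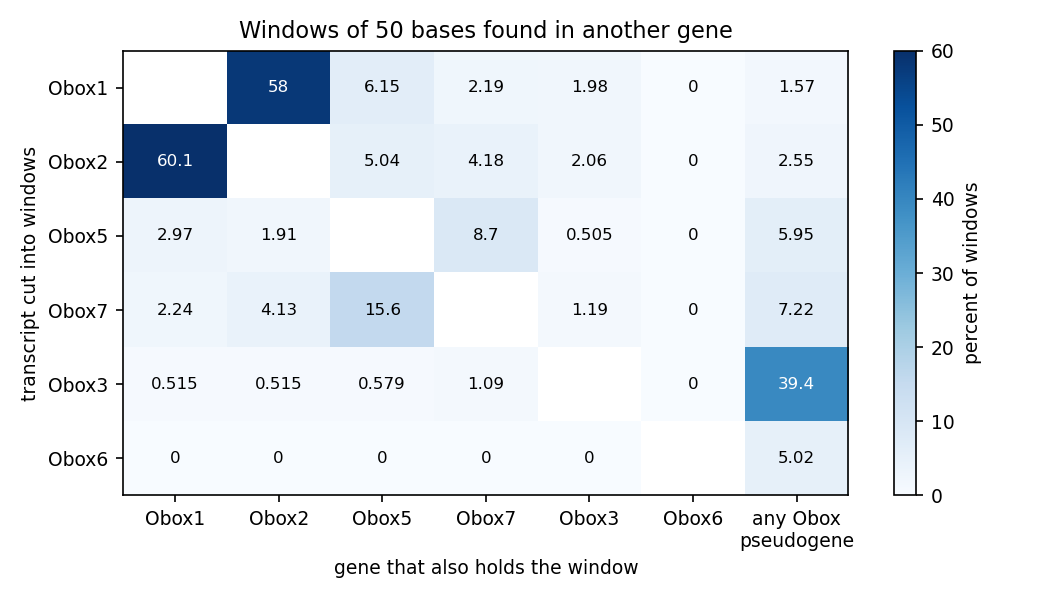
Percent of the 50-base windows of each Obox transcript (rows) that occur unaltered in another Obox gene or in any Obox pseudogene (columns), on a colour scale from 0 to 60%. Obox1 and Obox2 share 58.0% and 60.1% of their windows with each other, Obox3 shares 39.4% with pseudogenes, and Obox6 shares 0 with the other genes.

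Other copies of the family were in the tables under older symbols. No further row had a symbol beginning with Obox, but RefSeq synonyms placed 36 rows in the family: Obox7, 8 Obox3 pseudogenes and 27 Obox4 pseudogenes. Obox7 (listed as Gm4745), a maternal member by its reported expression, had a score of 2668 in control oocytes and 331 in control 2C embryos (log2 ratio -3.01). It had 227 in control and 1149 in mutant 2C embryos (log2 ratio 2.34), and 1180.3 in control oocytes and 545 in mutant eggs (log2 ratio -1.11). Against control oocytes, at 1771, mutant 2C embryos had 1179 (log2 ratio -0.59). Obox7 was thus on the side of the maternal genes in each comparison. It shares 15.6% of its windows with Obox5 and 20.2% with any gene.

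Most Obox3 pseudogenes had ratios of the same sign as Obox3. In control 2C embryos 7 of 8 were past the bound upward relative to control oocytes, beside 31.0% of all measured genes, with a median log2 ratio of 4.79 beside 0.21. In mutant against control 2C embryos 6 of 8 were past it downward, beside 32.7%, with a median of -3.73 beside -0.37. Obox3-ps1 to Obox3-ps6 and Obox3-ps8 hold windows of the Obox3 transcript, so their scores are not separate evidence. Obox3-ps7 (listed as Gm18355) holds none, and it was at 0.00333 in control oocytes and 173 in control 2C embryos, and at 119 in control and 0.0100 in mutant 2C embryos. The exceptions were Obox3-ps2 (listed as Gm8040), at 50.9 in control and 26.8 in mutant 2C embryos (log2 ratio -0.90), and Obox3-ps8 (listed as Gm4830), which lies on chromosome 17 outside the cluster and was at 18.3 and 53.7 (log2 ratio 1.5). Of the 27 Obox4 pseudogenes only 2 were measured anywhere, at scores of at most 24.4. Obox4-ps37 (listed as Gm20664) was at 0 in control and 23.8 in mutant 2C embryos, and Obox4-ps27 (listed as Gm10679) at 1.84 and 10.3.

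Genes with the most similar pattern were found by the distance between log2 ratios to control oocytes over 3 groups (mutant eggs, control 2C and mutant 2C embryos), among 8585 genes with a score of at least 200 somewhere. For Obox6 the nearest was Crxos1, at a distance of 0.22, which is itself a homeobox gene. RefSeq lists Crxos1 as an older symbol of Crxos, which lies on chromosome 7 with its start 42.9 kb beyond Obox6, past Crx. Crxos1 was listed at 0 in control oocytes and at 3513 in control 2C embryos, and it had 2416 in control and 2.57 in mutant 2C embryos (log2 ratio -9.40). A separate row named Crxos, by RefSeq a symbol of the same gene, was at 0 in control oocytes and 145 in control 2C embryos. Its log2 ratio of mutant to control 2C embryos was -6.62. Crx, the retinal homeobox gene that lies between Obox6 and Crxos1, was at 9.19 in control and 37.6 in mutant 2C embryos (log2 ratio 1.92). The next nearest to Obox6 were Calcoco2, an autophagy receptor (0.45), and Rpp25, a subunit of RNase P (0.49).

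For Obox3 the nearest genes were Rpl14-ps1 (0.27), the mitochondrial tyrosyl-tRNA synthetase Yars2 (0.28) and Gemin4 of the SMN complex (0.30). For Obox1 they were the corepressor gene Ctbp2 (0.36), Dbndd1 (0.44) and Tmco3 (0.53). For Obox2 they were the mitochondrial RNA-binding protein gene Ptcd1 (0.33), the receptor phosphatase gene Ptprk (0.38) and Fam110c (0.39). For Obox5 they were the collagen gene Col6a6 (0.17), Cgn, which encodes the tight junction protein cingulin (0.33), and the ubiquitin ligase gene Rnf180 (0.35). The Obox members were left out of the genes searched, and so were rows named Gm plus digits, which include Obox7. Whether Obox genes lie near each other in pattern was therefore not examined.

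The wider class of paired-like homeobox genes held members past the bound in both directions. Of 28 on a list, 14 were measured in control 2C embryos against control oocytes, of which 5 were past the bound upward and 6 downward, beside 31.0% and 23.9% of all measured genes, with a median of 0.40 beside 0.21. In mutant against control 2C embryos 13 were measured, with 5 upward and 3 downward, beside 21.2% and 32.7%, and a median of 0.72 beside -0.37. In mutant eggs 0 of 6 measured were past it upward and 2 downward, beside 8.79% and 6.26% (median -0.66 beside 0.02). In mutant 2C embryos against control oocytes 4 of 10 were past it upward and 1 downward, beside 16.0% and 18.9% (median 0.48 beside -0.14). Nobox, a homeobox regulator of oocyte genes, had the maternal course, at 5217 in control oocytes and 753 in control 2C embryos (log2 ratio -2.79), and at 521 in control and 4018 in mutant 2C embryos (log2 ratio 2.94). Otx1, a homeobox gene of brain development, also had the maternal course, at 393 in control oocytes and 4.37 in control 2C embryos (log2 ratio -6.20). It was at 2.92 in control and 353 in mutant 2C embryos (log2 ratio 6.49). Against control oocytes, at 262, mutant 2C embryos had 351 (log2 ratio 0.42), within the bound. Hesx1, a homeobox repressor of forebrain and pituitary development, had the zygotic course, at 3.82 in control oocytes and 563 in control 2C embryos (log2 ratio 6.87), and at 382 in control and 2.29 in mutant 2C embryos (log2 ratio -6.86).

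Transcription factors of the oocyte, a list of 12, were measured at 12 in control 2C embryos against control oocytes, with 3 past the bound upward and 7 downward, beside 31.0% and 23.9% of all measured genes, and a median of -2.08 beside 0.21. In mutant against control 2C embryos 4 of 11 were past it upward and 2 downward, beside 21.2% and 32.7%, with a median of 1.60 beside -0.37. Stat3, a signal-dependent activator, was at 6561 in control oocytes and 479 in control 2C embryos (log2 ratio -3.77). It was at 332 in control and 3381 in mutant 2C embryos (log2 ratio 3.34). Tbpl2, the oocyte paralog of the TATA-binding protein, was at 19.4 in control and 537 in mutant 2C embryos (log2 ratio 4.72). Tbpl2 was also higher in mutant 2C embryos than in control oocytes, at 543 and 34.0 (log2 ratio 3.96), where no maternal Obox gene was past the bound. Taf4b, a TFIID subunit of the germline, was at 4664 in control and 787 in mutant 2C embryos (log2 ratio -2.57). In mutant eggs 0 of 10 measured were past the bound, beside 8.79% upward and 6.26% downward (median -0.31 beside 0.02). In mutant 2C embryos against control oocytes 1 of 10 was past it upward and 1 downward, beside 16.0% and 18.9% (median -0.30 beside -0.14).

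Factors linked to zygotic genome activation, a list of 25, had 13 past the bound upward and 1 downward of 25 measured in control 2C embryos against control oocytes, beside 31.0% and 23.9% of all measured genes, with a median of 2.17 beside 0.21. In mutant against control 2C embryos 2 of 26 measured rows were past it upward and 12 downward, beside 21.2% and 32.7%, with a median of -1.72 beside -0.37. Gabpa, an ETS-family activator, was at 7623 in control and 47.7 in mutant 2C embryos (log2 ratio -7.29), Klf5, a zinc finger factor of early lineages, at 1364 and 15.2 (log2 ratio -6.40), and Tead4, the trophectoderm partner of YAP, at 672 and 1.68 (log2 ratio -7.97). Not every zygotic gene was missing in the mutant embryo: Zfp352, a zinc finger gene active at the 2C stage, was at 0.0567 in control oocytes and 1077 in mutant 2C embryos, whereas Obox6 was at 0.0367 and 2.22 in the same table. In mutant eggs 2 of 18 were past the bound upward and 2 downward, beside 8.79% and 6.26% (median -0.91 beside 0.02). In mutant 2C embryos against control oocytes 5 of 21 were past it upward and 2 downward, beside 16.0% and 18.9% (median -0.36 beside -0.14). These lists were chosen with earlier results of these data known, and nothing particular to them is read from their counts.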

How the data were processed

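The 4 tables used each compare a pair of groups. The authors took first reads cut to 50 bases (mean base quality 15 or more), aligned them with BBMap at 95% identity to mm10 genes and repeats, weighted reads at N gene loci by 1/N², median normalized in R and averaged within groups. The deposited values are thus a score without a fixed unit. Cufflinks and DESeq are also named in the submitters' processing notes (versions not given in the sources used here). Further deposited columns hold the authors' fold changes, tests and p-values, which were not used, and 0 columns of per-library values were left unused. The repeat rows were not used. In the tables of 2C embryos columns are named a and b. The order taken, b as the first-named group, was checked across genes: the column read as control oocytes had a Spearman correlation of at least 0.9995 with the named oocyte column, and the other at most 0.7833. For mutant against control 2C embryos, each column had a correlation of 1.0000 with the 2C column of the same group in another table. With that of the other group it was at most 0.5652. The study's legends for these comparisons give the opposite order of a and b, which these correlations go against.

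Log2 ratios with a pseudocount of 1 were computed in Python 3.11.15 (numpy 2.4.6, pandas 2.3.3). The code was run on group means changed by known factors without noise, which checks the arithmetic only. No test of the members was run, since a spread between libraries cannot be had from group means, and the depth is unknown here. Sequences and positions came from RefSeq and GENCODE annotations of GRCm38, the build the authors used, and were aligned with Biopython 1.88. The text names all members, other Obox rows with a score of at least 10, the 3 nearest genes by pattern for each member, and up to 4 genes per list with a score of at least 200. Members and lists were chosen with earlier results of these data known. Rows under older symbols, the Crxos, Crx and Obox3-ps rows and the Crxos1 position were looked up after the values were seen. Alternatives were a pseudocount of 10, bounds of 1 and 3 on the log2 scale, no minimum score or 50, centring on the median, and the route through control oocytes.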

Additional observations from a re-analysis of the deposited data

How the results depend on the processing

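No paired analysis was possible because the tables give group means and no value per library, and for the same reason no replicate could be left out in turn. Other bounds and minimum scores leave each ratio as it is, so only the pseudocount of 10, the centring and the route through control oocytes could move one. Under these, the 10 ratios past the bound gave 25 values, of which 25 stayed past it in the same direction. At a bound of 1 on the log2 scale, which is lower by construction, the number of Obox genes past the bound was 2 rather than 0 in mutant eggs (Obox1 and Obox2, lower) and 3 rather than 0 in mutant 2C embryos against control oocytes (Obox2, Obox5 and Obox3, lower). With 10 added in place of 1, the log2 ratio of Obox6 was 8.31 rather than 11.61 in control 2C embryos against control oocytes and -7.48 rather than -9.38 in mutant against control 2C embryos, and that of Obox3 in the latter was -5.92 rather than -6.63. The route through control oocytes gave -9.97 for Obox6.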
